A study of Sus scrofa with 16 samples.

Results

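Dystrophin and alpha-sarcoglycan are described here by the read counts of their genes, *DMD* and *SGCA*, in cultured satellite cells (SCs) of dystrophic and healthy piglets. Both genes were taken by name from a table of 3875 pig genes, so they are 2 of 3875. The rule that takes them uses no measured value, but they and the gene lists below were chosen with earlier results of these data known. Each is also given relative to *DES*, which encodes the muscle intermediate filament protein desmin.

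SCs are the stem cells of skeletal muscle. They had been isolated from the intercostal (INT) muscle of 3-day-old male piglets, either with a deletion of exon 52 of *DMD* (group DMD) or wild type (group WT), and messenger RNA was read from its 3′ end. The cells had been depleted of cells bearing the endothelial and blood antigens CD31 and CD45 and then selected for integrin β1, NCAM1 and M-cadherin. Each of 4 DMD and 4 WT animals gave 1 library in the proliferative state (PROL, growth medium, passage 6) and 1 in the differentiated state (DIFF, the same passage in medium with reduced serum). The sequencing methods give 10 days in that medium and the culture methods 7 days, so the duration is not settled. This makes 4 groups of 4 libraries (DMD PROL, WT PROL, DMD DIFF and WT DIFF), and each genotype was compared in cells grown outside the animal.

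Dystrophin links the actin cytoskeleton of the muscle fiber to a group of membrane proteins, the dystrophin-associated complex. Alpha-sarcoglycan belongs to the sarcoglycans, membrane proteins that stabilise this complex, and is made mainly in striated muscle, whereas epsilon-sarcoglycan (*SGCE*), its closest relative, is made in many tissues. In skeletal muscle, loss of dystrophin protein is accompanied by loss of sarcoglycans from the membrane, and inherited defects of *SGCA* cause a limb-girdle muscular dystrophy. The counts below measure transcripts only and hold no information on protein.

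Library totals lay between 1477772 and 1664700 counts in DMD PROL, 1110050 and 1657300 in WT PROL, 1434476 and 1781174 in DMD DIFF, and 1572180 and 1762968 in WT DIFF. All 124000 deposited values were even numbers, and the reason is not given in the sources used here. If 1 read was entered as 2 counts, the intervals for counting error below are too narrow. One library stood apart: in DMD PROL replicate 4, the ribosomal RNA gene *RN18S* took 20.4% of the counts, and its 2 technical columns held 284968 and 55278 *RN18S* counts. The *DMD*, *SGCA* and *DES* results and the counts per gene list that rest on this library are also given without it. The *DMD* count does not check the genotype labels, because a tag at the 3′ end of the transcript need not cover exon 52, and which reads of the gene were counted was not examined. The labelled cell type rests on few genes here: 5 of 11 satellite cell and myoblast markers were in the table, *PAX7* was not among them, *DES* was counted in all 16 libraries, and *MYF5*, an early myogenic factor, was at 0 in both WT groups. The summed level of these 5 markers, in CPM (counts relative to the library total) scaled by TMM, a correction for library composition, was 966 to 1441 in DMD PROL and 65.2 to 89.5 in WT PROL, and 1873 to 2253 in DMD DIFF and 231 to 390 in WT DIFF. *DES* alone made up most of this sum, at 938 to 1406 CPM in DMD PROL and 59.4 to 83.3 CPM in WT PROL. Its DIFF levels were 1803 to 2204 CPM in DMD and 219 to 380 CPM in WT.

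*DMD* transcripts were few in all groups and more abundant in DMD than in WT SCs in both states. The 4 DMD PROL libraries, replicates 1 to 4, held 24, 28, 32 and 30 counts, against 6 counts in each of the 4 WT PROL libraries. Per library these were 14.7, 17.9, 18.8 and 19.7 CPM in DMD PROL and 4.35, 3.73, 3.28 and 4.63 CPM in WT PROL. Every DMD PROL library was thus above every WT PROL library, and the groups did not overlap. The group means were 17.8 ± 2.17 CPM in DMD PROL and 4.00 ± 0.607 CPM in WT PROL (SD, n = 4 each).

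The depth behind the WT PROL values was shallow: a count of 6 has an exact 95% Poisson interval of 2.20 to 13.1 counts. The 2 technical columns that make up each WT PROL library held 2 and 4 counts in replicate 1, 6 and 0 in replicate 2, 0 and 6 in replicate 3, and 2 and 4 in replicate 4. Equal totals in the 4 animals therefore did not come from equal columns.

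In the PROL state, *DMD* was higher in DMD than in WT SCs by 2.13 on the log2 scale (SE 0.36, adjusted p = 0.000407, edgeR quasi-likelihood test with Benjamini-Hochberg adjustment over 1914 genes). A gene was called when the adjusted p was under 0.05 and the log2 fold change over 0.6 in size. Of all genes tested in PROL, 18.2% were called, 8.36% as higher and 9.87% as lower in DMD, and in 15.7% the groups did not overlap with DMD higher. *DMD* passed the filter on low counts only through the DMD PROL libraries, since 0 of the 4 WT PROL libraries reached its minimum. Without that filter the log2 fold change was 2.13 (adjusted p = 0.000195, edgeR), and without DMD PROL replicate 4 it was 2.08 (adjusted p = 0.00172, edgeR).

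In the DIFF state, *DMD* counts were 48, 48, 30 and 36 in DMD libraries and 12, 22, 18 and 18 in WT libraries. As levels, these were 33.6, 28.1, 21.6 and 25.6 CPM in DMD DIFF and 8.20, 16.1, 11.6 and 12.1 CPM in WT DIFF. The lowest DMD DIFF library, replicate 3, still lay above the highest WT DIFF library, replicate 2. The means were 27.2 ± 5.01 CPM in DMD DIFF and 12.0 ± 3.22 CPM in WT DIFF (SD, n = 4 each). The log2 fold change was 1.16 (SE 0.31, adjusted p = 0.00503, edgeR over 1916 genes), in a comparison in which 33.6% of genes were called, 16.1% as higher in DMD, and 22.6% did not overlap with DMD higher. With only the first technical column of each library, it was 1.05 and no longer called (adjusted p = 0.0529, edgeR).

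**Figure D1:**
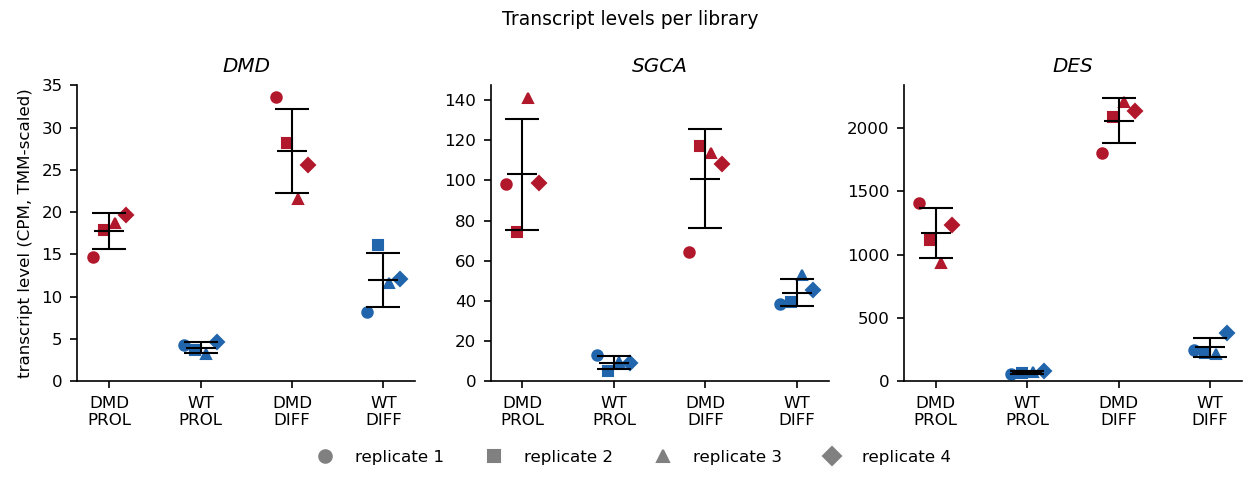
Transcript levels of *DMD*, *SGCA* and *DES* in each of the 16 libraries, in CPM scaled by TMM on linear axes that start at 0. Symbols mark the replicate, red DMD and blue WT, and black bars the mean and SD of 4 libraries. All 4 DMD libraries lie above all 4 WT libraries of the same state for each gene, and *SGCA* lies at 103 CPM on average in DMD PROL and 101 CPM in DMD DIFF.

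Alpha-sarcoglycan transcripts differed more between the genotypes in PROL than in DIFF. *SGCA* counts in PROL were 160, 116, 240 and 150 in DMD libraries and 18, 8, 18 and 12 in WT libraries. The levels were 98.0, 74.3, 140.8 and 98.5 CPM in DMD PROL and 13.0, 4.97, 9.85 and 9.26 CPM in WT PROL, with no overlap. DMD PROL replicate 3 was the highest library of all groups and WT PROL replicate 2 the lowest. The means were 103 ± 27.7 CPM in DMD PROL and 9.28 ± 3.32 CPM in WT PROL (SD, n = 4 each).

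*SGCA* was thus higher in DMD PROL by 3.46 on the log2 scale (SE 0.28, adjusted p = 2.15e-07, edgeR), the gene ranking 29 of 1914 by log2 fold change, with *DMD* at rank 46. Without DMD PROL replicate 4 the *SGCA* value was 3.48 (adjusted p = 2.94e-07, edgeR). Only 3 of the 4 WT PROL libraries reached the minimum of the filter, so *SGCA* too passed it with the help of the DMD PROL libraries. Without that filter the value was 3.46 (adjusted p = 8.88e-26, edgeR).

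In DIFF, *SGCA* counts were 92, 200, 158 and 152 in DMD libraries and 56, 54, 82 and 68 in WT libraries. The levels were 64.4, 117.3, 113.8 and 108.1 CPM in DMD DIFF and 38.3, 39.5, 52.9 and 45.7 CPM in WT DIFF. DMD DIFF replicate 1 was the lowest of its group and lay closest to the WT DIFF libraries, but did not overlap with them. The means were 101 ± 24.6 CPM in DMD DIFF and 44.1 ± 6.71 CPM in WT DIFF (SD, n = 4 each), and the difference was 1.17 on the log2 scale (SE 0.20, adjusted p = 0.000143, edgeR). By log2 fold change *SGCA* ranked 165 and *DMD* 170 of 1916 genes.

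The genotype effect on *SGCA* differed between the states. The genotype-by-state term, the log2 fold change of DMD over WT in DIFF minus that in PROL, was -2.29 (SE 0.36, adjusted p = 3.35e-05, edgeR on all 16 libraries), placing the gene at rank 1977 of 2030. Of all genes, 23.4% were called for this term, 13.0% with a negative value. A negative term was not particular to *SGCA*: of 17 contractile and muscle metabolism genes tested, 8 had a called negative and 2 a called positive value. Their median was -1.27 against -0.04 for all genes. Without DMD PROL replicate 4 these were 10 and 2, with a median of -1.46. The myosin light chain gene *MYL1* had a term of -2.40 (adjusted p = 3.05e-05, edgeR). For *DMD* the term was -0.97 (SE 0.44, adjusted p = 0.105, edgeR) and was not called. Without DMD PROL replicate 4 the terms were -2.31 for *SGCA* (adjusted p = 6.55e-05) and -0.92 for *DMD* (adjusted p = 0.162).

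With differentiation, both genes rose in WT SCs, and for neither did the change in DMD SCs pass the test. *DMD* levels in DIFF relative to PROL of the same animal were 2.28, 1.57, 1.15 and 1.30 times in the DMD animals and 1.89, 4.32, 3.54 and 2.61 times in the WT animals. All 8 animals thus had a higher *DMD* level in DIFF. In WT SCs *DMD* rose by 1.57 on the log2 scale (SE 0.42, adjusted p = 0.00578, edgeR), in a comparison where 32.2% of genes were called, 17.9% as higher in DIFF, and 23.3% did not overlap with DIFF higher. Here the gene passed the filter only through the WT DIFF libraries. Without that filter the value was 1.56 (adjusted p = 0.0212, edgeR).

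In DMD SCs the log2 fold change of *DMD* was 0.61 (SE 0.26, adjusted p = 0.0675, edgeR) and was not called, although the DIFF and PROL libraries did not overlap. In this comparison 28.4% of genes were called, 16.0% as higher in DIFF, and 21.3% did not overlap with DIFF higher. The call rested on 1 library: without DMD DIFF replicate 3, the lowest of its group, the value was 0.71 and passed the threshold (adjusted p = 0.0488, edgeR). Without DMD PROL replicate 4 it was 0.66 (adjusted p = 0.0775, edgeR).

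*SGCA* levels in DIFF relative to PROL were 0.657, 1.58, 0.808 and 1.10 times in the DMD animals, higher in 2 and lower in 2. In the WT animals they were 2.93, 7.95, 5.37 and 4.94 times, higher in all 4. *SGCA* rose in WT SCs by 2.25 on the log2 scale (SE 0.30, adjusted p = 1.49e-05, edgeR). Here too 3 of the 4 WT PROL libraries reached the minimum of the filter, and without that filter the value was 2.23 (adjusted p = 1.76e-10, edgeR). In DMD SCs the value was -0.04 (SE 0.21, 95% interval -0.45 to 0.38, adjusted p = 0.913, edgeR), and its sign depended on single libraries, being 0.15 without DMD PROL replicate 3 and 0.12 without DMD DIFF replicate 1. It was -0.06 without DMD PROL replicate 4.

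**Figure D2:**
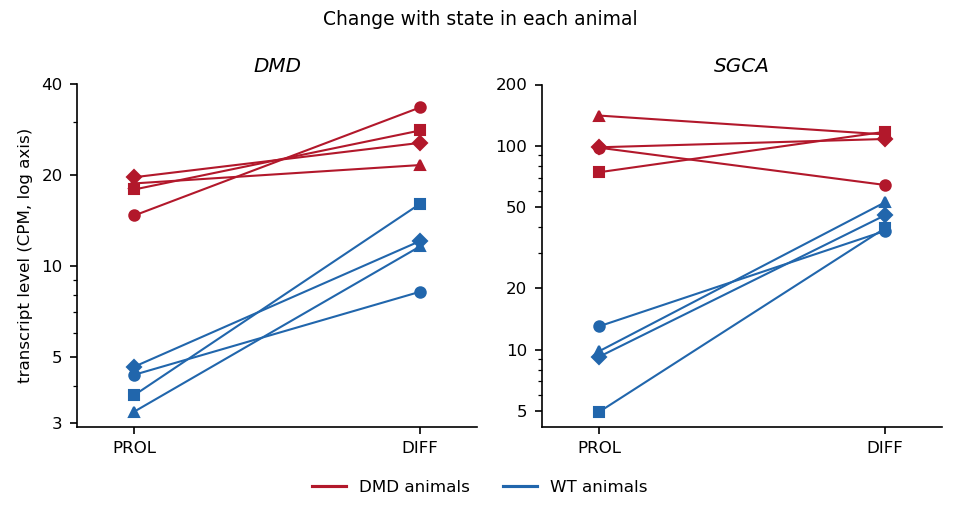
Level of *DMD* and *SGCA* in each animal in PROL and in DIFF, in CPM scaled by TMM on log axes. Each line joins the 2 libraries of 1 animal, red for the 4 DMD and blue for the 4 WT animals. The 4 WT lines rise for both genes, whereas for *SGCA* 2 of the 4 DMD lines rise and 2 fall.

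Both genes were then set against *DES*, to ask whether they were as much higher in DMD SCs as a general muscle transcript. *DES* counts were 2296, 1742, 1598 and 1878 in DMD PROL and 82, 108, 136 and 108 in WT PROL. In DIFF they were 2578, 3564, 3060 and 3000 in DMD and 368, 304, 340 and 566 in WT. *DES* was higher in DMD SCs in both states without overlap, with log2 fold changes of 4.03 in PROL (SE 0.14, adjusted p = 1.73e-10, edgeR) and 2.92 in DIFF (SE 0.16, adjusted p = 1.05e-08, edgeR). It rose with differentiation in both genotypes, by 0.80 in DMD (adjusted p = 4.35e-05, edgeR) and 1.91 in WT (adjusted p = 1.09e-06, edgeR), with a genotype-by-state term of -1.12 (SE 0.24, adjusted p = 0.00158, edgeR). Leaving out DMD PROL replicate 4 gave 4.01 in PROL, 0.83 in DMD SCs and -1.09 for the term, all still called.

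Relative to *DES*, the direction for *DMD* was the opposite of that of its level. By log2 fold change of DMD over WT, *DES* itself ranked 18 of 1914 genes in PROL and 35 of 1916 in DIFF. Most genes ranked below it and so tend to have a lower ratio to *DES* in DMD SCs. A lower ratio is therefore not particular to *DMD* or *SGCA*, and the share of all genes with one was not computed. The *DMD* counts per 1000 *DES* counts were 10.5, 16.1, 20.0 and 16.0 in DMD PROL and 73.2, 55.6, 44.1 and 55.6 in WT PROL. In DIFF they were 18.6, 13.5, 9.80 and 12.0 in DMD and 32.6, 72.4, 52.9 and 31.8 in WT. In both states every DMD library lay below every WT library. The mean log2 ratio of DMD minus WT SCs was -1.88 in PROL, a 3.69-fold lower ratio in DMD, and -1.77 in DIFF, a 3.41-fold lower ratio in DMD. Each difference had p = 0.0286, the smallest that 4 against 4 animals can give in a two-sided exact permutation test, and 0.0571 after Benjamini-Hochberg adjustment over the 6 ratio tests. Neither therefore passed the adjusted threshold. Without DMD PROL replicate 4 the PROL value was -1.91.

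For *SGCA*, the counts per 1000 *DES* counts were 69.7, 66.6, 150.2 and 79.9 in DMD PROL and 219.5, 74.1, 132.4 and 111.1 in WT PROL, and the groups overlapped. In DIFF they were 35.7, 56.1, 51.6 and 50.7 in DMD and 152, 178, 241 and 120 in WT, without overlap. The mean log2 ratio differed by -0.53 in PROL (exact permutation p = 0.314, adjusted 0.377) and by -1.81 in DIFF (exact permutation p = 0.0286, adjusted 0.0571). The DIFF ratio was 3.50-fold lower in DMD than in WT SCs. Without DMD PROL replicate 4 the PROL value was -0.49.

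Within animals, the log2 ratio of *SGCA* to *DES* changed between PROL and DIFF by -0.85 on average in DMD and 0.43 in WT animals, a difference of -1.28 (exact permutation p = 0.0571, adjusted 0.0857). That of *DMD* to *DES* changed by -0.22 in DMD and -0.33 in WT animals, a difference of 0.12 (exact permutation p = 0.857, adjusted 0.857). Neither difference passed the threshold. The differences were -1.35 for *SGCA* and 0.18 for *DMD* without DMD PROL replicate 4. With 4 animals, an exact sign-flip test of the change within 1 genotype cannot pass the threshold, so none was called.

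These ratios depended on the muscle gene set below them. With *MYL1*, a myosin light chain gene, as the reference, the differences kept their negative sign, at -2.42 for *DMD* in PROL, -1.02 for *DMD* in DIFF, -1.07 for *SGCA* in PROL and -1.06 for *SGCA* in DIFF, and all 4 passed the threshold (exact permutation, adjusted p = 0.0429 each). Each had an exact permutation p = 0.0286 before adjustment, as 3 of these differences had with *DES*, so for those 3 the adjusted value fell because 4 in place of 3 of the 6 tests lay at the smallest p. With *TNNT2*, a troponin gene, the differences were -1.93 for *DMD* in PROL, -1.66 for *DMD* in DIFF, -0.58 for *SGCA* in PROL and -1.70 for *SGCA* in DIFF, and none passed (exact permutation, adjusted p = 0.0571, 0.0571, 0.343 and 0.0571). With the sum of 24 contractile and muscle metabolism genes, the PROL differences turned positive, at 0.18 for *DMD* (adjusted p = 0.514) and 1.54 for *SGCA* (adjusted p = 0.0343, exact permutation). The DIFF differences stayed negative with this sum, at -1.12 for *DMD* and -1.15 for *SGCA* (adjusted p = 0.0343 each, exact permutation). The 3 tropomyosin genes *TPM1*, *TPM2* and *TPM3*, which many cell types use, made up 19.3% to 27.8% of that sum in DMD PROL and 77.8% to 88.2% in WT PROL.

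**Figure D3:**
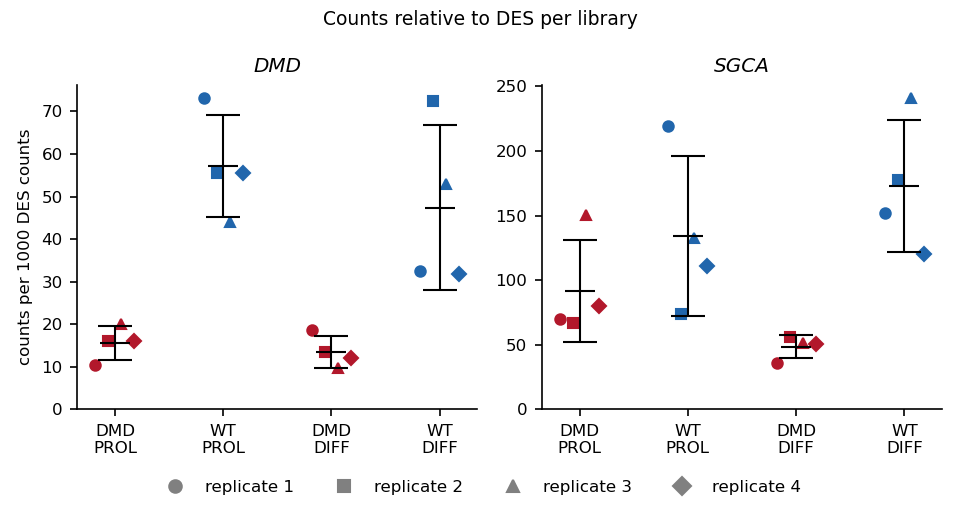
Counts of *DMD* and *SGCA* per 1000 *DES* counts of the same library, on linear axes that start at 0. Symbols mark the replicate, red DMD and blue WT, and black bars the mean and SD of 4 libraries. For *DMD* the DMD libraries lie below the WT libraries in both states, at 15.6 on average against 57.1 in PROL and 13.5 against 47.4 in DIFF, whereas for *SGCA* the groups overlap in PROL.

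The 2 genes were also set against each other. *SGCA* counts per *DMD* count averaged 5.83 ± 1.53 in DMD PROL and 2.33 ± 0.816 in WT PROL, and 3.89 ± 1.41 in DMD DIFF and 3.86 ± 1.02 in WT DIFF (SD, n = 4 each). Within the libraries, the ratio ranged up to 7.50 in DMD PROL replicate 3 and down to 1.33 in WT PROL replicate 2. These ratios compare samples only, since transcript lengths were not used, and they were not tested.

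Of 19 genes listed for the dystrophin complex, 7 were in the table and 5 had enough counts to be tested: *DMD*, *SGCA*, *SGCB*, *SGCD* and *SGCE*. The other 12, including *UTRN* (utrophin, the relative of dystrophin) and *DAG1* (dystroglycan), were not analysed here. In PROL 3 of the 5 were higher in DMD and 0 lower, where 8.36% of all genes were higher and 9.87% lower, with a median log2 fold change of 0.90 against -0.00 for all genes. The 3 were *SGCD* and the members *DMD* and *SGCA*, which were chosen with earlier results known. *DMD* was among the 5 in PROL only through the DMD PROL libraries. These counts are a description and do not test the complex as a whole. In DIFF 2 of the 5 were higher, both of them members, and 1 was lower. Of all genes there, 16.1% were higher and 17.5% lower, and the median of the 5 was 0.47 against -0.03 for all genes. With differentiation 0 of 5 passed the test in DMD SCs, against 28.4% of all genes, and 4 of 5 rose in WT SCs, against 17.9% of all genes. The 4 were the members, *SGCD* and *SGCE*, and *DMD* was tested in WT SCs only through the WT DIFF libraries. The medians of the 5 were 0.05 in DMD SCs and 1.35 in WT SCs against 0.01 and 0.03 for all genes. The count of 0 rested on single libraries: *DMD* was called without DMD DIFF replicate 3, as given above, and *SGCD* without DMD PROL replicate 4 (0.71, adjusted p = 0.0052, edgeR, against 0.49 with it). The PROL count stayed at 3 higher and 0 lower without DMD PROL replicate 4, with a median of 0.68.

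*SGCD*, which encodes delta-sarcoglycan, averaged 87.8 ± 25.8 CPM in DMD PROL and 46.5 ± 7.59 CPM in WT PROL (SD, n = 4 each) and was higher in DMD without overlap (log2 fold change 0.90, SE 0.21, adjusted p = 0.00452, edgeR). DMD PROL replicate 4 was its highest library at 126.0 CPM, and without it the value was 0.68 (adjusted p = 0.0172, edgeR). In DIFF it averaged 124 ± 28.4 CPM in DMD and 88.0 ± 32.6 CPM in WT, the groups overlapped, and it was not called (log2 fold change 0.47, adjusted p = 0.1245, edgeR), but was without WT DIFF replicate 4 (0.76, adjusted p = 0.00561, edgeR). Its rise in WT SCs (0.92, adjusted p = 0.00535, edgeR) was not called when libraries were scaled by size alone (0.58). *SGCB*, for beta-sarcoglycan, averaged 13.3 and 17.7 CPM in DMD PROL and WT PROL and 13.7 and 11.8 CPM in DMD DIFF and WT DIFF, with no call in any comparison and 1 WT DIFF library at 0 counts.

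*SGCE* differed from *DMD* and *SGCA* in its direction in DIFF. It averaged 168 ± 8.45 CPM in DMD PROL and 155 ± 16.3 CPM in WT PROL, and 174 ± 34.1 CPM in DMD DIFF and 395 ± 36.1 CPM in WT DIFF (SD, n = 4 each). The 4 WT DIFF libraries stood above all others, at 350.0 CPM or more, whereas the other 12 reached at most 208.9 CPM. In PROL the log2 fold change of DMD over WT was 0.11 (adjusted p = 0.540, edgeR), and in DIFF *SGCE* was lower in DMD (-1.20, SE 0.13, adjusted p = 1.02e-06, edgeR), where 17.5% of genes were called as lower and 22.5% did not overlap with DMD lower. It rose with differentiation in WT SCs (1.35, adjusted p = 1.31e-07, edgeR) but had a value of 0.04 in DMD SCs (adjusted p = 0.849, edgeR), and the genotype-by-state term was -1.31 (SE 0.17, adjusted p = 4.42e-06, edgeR).

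The counts of *SGCA* per 1000 counts of *SGCE* were 580, 414, 845 and 620 in DMD PROL and 73.8, 33.6, 62.9 and 66.7 in WT PROL. In DIFF they were 438, 595, 545 and 760 in DMD and 109, 92.2, 126 and 119 in WT. The DMD libraries lay above the WT libraries in both states, and this ratio, chosen after the values were seen, was not tested.

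*CAV3*, for the muscle caveolin, had 6 counts in each DMD group and 0 in each WT group, which allows up to 0.557 CPM in WT PROL and 0.456 CPM in WT DIFF. It was too low to be tested. *SGCZ*, for zeta-sarcoglycan, had 0 counts in all 16 libraries, which allows up to 0.123 CPM. These limits count 3 reads as compatible with 0 and cover counting error only.

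**Figure D4:**
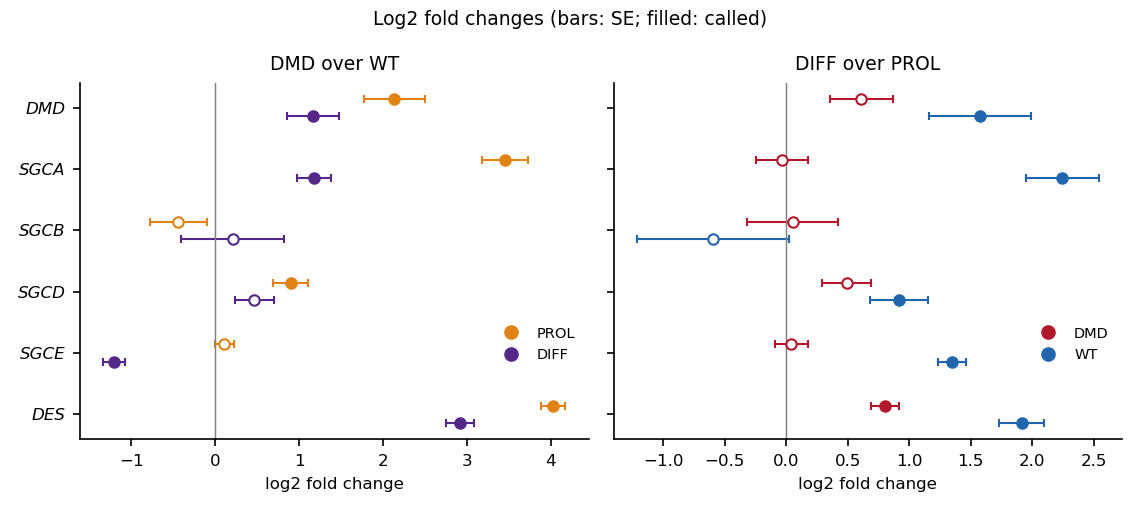
Log2 fold changes of the 5 tested dystrophin complex genes and of *DES*, on the left for DMD over WT in PROL and DIFF and on the right for DIFF over PROL in DMD and WT SCs. Points are edgeR estimates with SE bars, filled where the gene was called. *SGCE* lies at -1.20 for DMD over WT in DIFF, on the other side of 0 from *DMD* at 1.16 and *SGCA* at 1.17.

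Of 28 genes for laminin ligands and the glycosylation of dystroglycan, 3 were tested and 0 were called in any comparison. Of all genes, 18.2% in PROL to 33.6% in DIFF were called, so 0 of 3 says little about this list. Of 27 genes for costameres, which anchor the sarcomere to the membrane, and for membrane repair, 6 were tested in PROL and 0 were called, where 18.2% of all genes were. For the genotype-by-state term 2 of 6 had a called positive and 1 a called negative value, where 23.4% of all genes were called, and without DMD PROL replicate 4 these were 2 and 0. In DIFF, where 33.6% of all genes were called, 2 of 6 were higher in DMD, *ITGB1* for integrin β1 (log2 fold change 1.16, adjusted p = 4.46e-08) and *VCL* for vinculin (1.13, adjusted p = 1.09e-06), and *CAPN1* for a calpain protease was lower (-1.01, adjusted p = 1.02e-05, all edgeR). Integrin β1 had also served to select the cells.

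The contractile genes were mostly higher in DMD SCs, as *DMD* and *SGCA* were. Of the 24 in the table, 15 were tested in PROL and 16 in DIFF. A gene can pass the filter on low counts through the DMD libraries alone, as *DMD* did in PROL. Such a gene can hardly be called lower in DMD, and which of the tested genes passed in this way was not examined. In PROL 13 of 15 tested were higher in DMD and 0 lower, against 8.36% of all genes higher, with a median log2 fold change of 4.08 against -0.00 for all genes. This was 14 of 16 without DMD PROL replicate 4, with a median of 4.24. Examples were *MYL1* at 4.58 (adjusted p = 7.64e-08) and *TNNC1*, a troponin gene, at 4.70 (adjusted p = 4.57e-08, both edgeR). In DIFF 15 of 16 were higher, against 16.1% of all genes, with a median of 2.38 against -0.03, among them *TNNI1*, another troponin gene, at 3.22 (adjusted p = 1.57e-08, edgeR). The list of myogenic regulators and satellite cell markers was more mixed. For PROL it had 4 tested genes, 2 called with a positive and 0 with a negative log2 fold change. The shares of all genes there were 8.36% and 9.87%. For DIFF it had 6 tested genes, 3 called with a positive and 1 with a negative value, against 16.1% and 17.5% of all genes. *MEF2C*, a transcription factor of muscle genes, was higher in DMD in PROL (3.46, adjusted p = 2.07e-08) and DIFF (1.57, adjusted p = 4.20e-05). *MYOG*, for myogenin, was higher in DMD in DIFF (3.03, adjusted p = 9.17e-06, all edgeR).

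The genes whose log2 CPM followed the 2 members most closely over the 16 libraries were muscle genes in most cases. Among 1997 genes with a mean of at least 5 CPM, those nearest to *DMD* were *MEF2C* (Pearson r = 0.961), *MLC2V* (0.960), *MYL1* (0.960), *ACTC1* (0.956) and *LOC733663* (0.954). Those nearest to *SGCA* were *MYL1* (0.943), *MYLPF* (0.941), *MEF2C* (0.937), *TNNT1* (0.933) and *LOC733663* (0.928). *DES* ranked 12 for *DMD* and 9 for *SGCA*, *SGCA* ranked 25 for *DMD* and *DMD* 13 for *SGCA*, with r = 0.912 between the 2. These values are a description, since the 16 libraries fall into 4 groups and share their scaling.

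Markers of other cell types moved with genotype as well. Of 14 fibroblast markers 9 were in the table, and 6 of 7 tested were lower in DMD in PROL, against 9.87% of all genes, and 7 of 9 in DIFF, against 17.5%. The PROL count was 7 of 8 without DMD PROL replicate 4. One of them was *DCN*, for the matrix protein decorin (-2.90 in PROL, adjusted p = 1.63e-06, and -4.23 in DIFF, adjusted p = 2.45e-13, both edgeR). Their summed level was 4218 to 4743 CPM in DMD PROL and 8537 to 10398 CPM in WT PROL, and 10426 to 13643 CPM in DMD DIFF and 22587 to 25654 CPM in WT DIFF. None of the 9 was at 0 in any group, and *PDGFRA* was not analysed here. The 4 endothelial markers in the table summed to 13.5 to 28.9 CPM in DMD PROL and 107 to 133 CPM in WT PROL, and to 27.4 to 49.0 CPM in DMD DIFF and 60.2 to 113 CPM in WT DIFF, with *PECAM1*, the gene of the depleted antigen CD31, lower in DMD in PROL (-3.37) and DIFF (-2.01). Fewer cells of a type and less RNA per cell cannot be told apart in such libraries, and the part of other cells in the *DMD* and *SGCA* results was not tested.

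Smooth muscle and pericyte markers, 4 of 9 in the table, summed to 1841 to 2380 CPM in DMD PROL and 1953 to 3177 CPM in WT PROL, and to 15802 to 20398 CPM in DMD DIFF and 1501 to 3450 CPM in WT DIFF. In PROL 0 of 4 tested were higher and 2 lower in DMD, where 8.36% of all genes were higher and 9.87% lower. The 2 were *RGS5* (-4.40, adjusted p = 0.00482) and *CNN1* (-1.13, adjusted p = 0.0433), and without DMD PROL replicate 4 only *RGS5* was called (adjusted p = 0.0205, all edgeR). In DIFF 3 of 3 were higher, against 16.1% of all genes. *ACTA2*, the smooth muscle actin that differentiating myoblasts also use, was higher in DMD in DIFF (3.54, adjusted p = 2.57e-05, edgeR). Blood markers, 5 of 8 in the table without *PTPRC*, summed to at most 41.1 CPM in DMD libraries and 73.3 CPM in WT libraries.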

How the data were processed

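The authors sequenced 25 ng of total RNA per sample by 3′ mRNA-seq and deposited a table of raw counts per gene with 2 technical columns per sample, 32 in all. The submitters' processing notes name bcl2fastq, FastQC, MultiQC, R 4.1.2, STAR 2.7.10b and the genome build susScr3; the annotation and strand setting are not given in the sources used here. The deposited counts were used without change except that the 2 technical columns of each library were added. No coordinates or sequences are given, since the reference gene table is of another assembly. In that table *SGCA* and *DES* overlap 0 other genes and *DMD* overlaps 4, none of them counted here.

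Differential expression was tested with edgeR 4.0.16 in R 4.3.3 (filterByExpr with a minimum count of 10 and total of 15, TMM, robust quasi-likelihood fit), per comparison on the 8 libraries concerned and on all 16 for the genotype-by-state term. Benjamini-Hochberg adjustment ran over all tested genes, and calls needed an adjusted p under 0.05 and a log2 fold change over 0.6 in size. DESeq2 1.42.0 was an alternative. The standard error is the log2 fold change divided by the square root of F. Ratios to *DES* are log2 ratios of counts per library, tested by a two-sided exact permutation over animals (scipy 1.17.1). Correlations of log2 CPM used a prior count of 2. The scripts were tested on simulated data.

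The 2 libraries of 1 animal share a replicate number. Over genes, their deviations from the group means correlated at 0.0999 to 0.172, and all 8 animals matched best with their own number. The members and gene lists were chosen with earlier results of these data known. Named are the members, *DES*, the measured complex genes, from each other list up to 3 called genes with the smallest p, fixed muscle references and cell markers, and the 5 nearest genes by correlation. Alternatives tried were other normalization, filters, tools, single technical columns, halved counts, the replicate block, other reference genes and leaving out each library. Technical columns were counted as 1 sample, so n is the number of animals, and intervals cover counting error only.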

Additional observations from a re-analysis of the deposited data

Results flagged for a closer look

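*SGCA* relative to *DES* in DMD PROL held 1 library far from the others. Replicate 3 had 150 *SGCA* counts per 1000 *DES* counts, against 66.6 to 79.9 in the other 3, and its gap to the nearest made up 0.841 of the group's range, above the critical value of 0.829 for 4 samples. Of 20 groups examined in this way chance flags about 1 in 20. Without this library the difference of DMD against WT in PROL was -0.79.

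The effect of genotype differed between the states for *SGCA*, with a term of -2.29, and for *DES*, with a term of -1.12 (adjusted p = 3.35e-05 and 0.00158, edgeR). The *SGCA* term lay between -2.49 and -2.07 and the *DES* term between -1.21 and -0.89 when each of the 16 libraries was left out.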

How the results depend on the processing

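Of 269 values recomputed under alternatives other than leaving out a library, 248 met the criterion set for them: the same sign and side of the threshold for a test, within 1.5 times for a count of genes, and a shift under 1 SD between animals for a change within 1 genotype. Size was no criterion for the tests, and 2 of the 248 had another sign, the change in WT of *DMD* with the sum of muscle genes (0.37 against -0.33) and of *SGCA* with the second technical column (-0.19 against 0.43). *DMD* in DIFF was no longer called with the first technical column (1.05). Single technical columns and a minimum count of 30 left *DMD* untested in PROL and in WT SCs, and halved counts left it untested in WT SCs, so its rise there has no check on halved counts.

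The ratios changed with the gene set below them. With *MYL1*, 4 differences of DMD against WT passed the threshold (-2.42 for *DMD* and -1.07 for *SGCA* in PROL, -1.02 and -1.06 in DIFF), the difference in change was 0.0089 for *SGCA* and 1.40 for *DMD* (adjusted p = 0.0686, exact permutation), and the change in WT was -1.93 for *DMD* and -1.17 for *SGCA*. With *TNNT2* the change in DMD was -1.69 for *DMD* and -2.32 for *SGCA*, and in WT -1.96 and -1.20. With the sum of muscle genes the PROL differences were 0.18 and 1.54, the DIFF differences -1.12 and -1.15, the differences in change -1.29 and -2.69, and the *SGCA* change in DMD -1.56. With the first technical column and a pseudocount of 0.5 the *DMD* difference in change was -0.69 and its change in WT 0.51. The cause of these shifts was not tested.

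Leaving out 1 library at a time gave 0.48 to 0.71 for *DMD* and -0.17 to 0.15 for *SGCA* between the states in DMD SCs. With 3 against 4 animals the exact permutation test of the ratios cannot go below p = 0.0571, so these ratios were compared by value only.

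With the animal as replicate block the calls of *DMD*, *SGCA* and *DES* stayed on the same side: *DMD* was 1.56 in WT (adjusted p = 0.0107) and 0.60 in DMD SCs (adjusted p = 0.0958). By their labels, DMD and WT animals share only a number. With the number as block *DMD* was 2.13 in PROL and 1.16 in DIFF, and same-numbered animals correlated at -0.0272 to 0.0987. DMD replicates 3 and 4 in PROL, and 1, 3 and 4 in DIFF, matched best with the WT library of their own number. The reason was not tested.

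Scaling by library size alone moved the median log2 fold change of all genes to -0.15 in PROL, 0.10 in DIFF, -0.32 in WT and 0.25 for the genotype-by-state term. Calls were then 122 higher and 264 lower in PROL (160 and 189 with TMM), 387 and 267 in DIFF (308 and 335), 194 and 564 in WT (343 and 275) and 387 and 134 for the term (213 and 263). *DMD* and *SGCA* kept their direction and calls. Of the 2 members *DMD* had the lower counts, at 6 per library in WT PROL.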
